A study of Mus musculus with 4 samples.

Results

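Natural killer (NK) cells were examined among CD11b+ cells sorted from MC38 tumors, which grow from a mouse colon carcinoma line. They were droplets with 5 or more UMIs (unique molecular identifiers, each 1 counted RNA molecule) summed over Ncr1, Klrb1c, Gzma and Prf1, at most 2 UMIs of the complement genes C1qa, C1qb and C1qc, fewer than 5 of Cd3e, Cd3d, Cd3g and Trac, and fewer than 10 of S100a8 and S100a9. The rule kept 906 of 25333 cells, 534 of 10193 in the wild-type (WT) library and 372 of 15140 in the VISTA knockout (KO) library. The cells were chosen by the levels of these 13 genes, which are therefore given only as a description.

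The study compared cells that carry or lack VISTA, an inhibitory immune receptor encoded by Vsir. Bone marrow from WT or VISTA KO donors on the C57/BL6 strain was used to build chimeric mice, which had 6 weeks to reconstitute before receiving tumors that were taken at 9 to 10 mm. Tumors were pooled, antibodies to CD45.1 and CD45.2 separated the genotypes, and viable CD11b+ cells were loaded for droplet sequencing of polyadenylated RNA from its 3′ end, with tagged antibodies to the surface proteins CD11c, Ly6G and Ly6C. The sources used here do not give host age, the CD45 allele of each group or the deleted part of Vsir. They also do not say whether WT and KO cells came from the same hosts. The CD45 difference, the library, the Vsir genotype and any difference of hosts or tumor pools cannot be told apart. The submitters' labels call the sorted cells myeloid suppressor cells, and NK cells are lymphoid, so the cells described here go beyond that label.

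Each genotype had 1 RNA library. No test between genotypes was therefore possible, no p-value is given, and every interval (95%) covers counting error only. NK cells held 1610808 UMIs in the WT library and 1238597 in the KO library, with a median of 2249.5 UMIs and 1046 genes per WT cell and 2533 UMIs and 1199 genes per KO cell. The other kept cells, meaning all kept cells outside the rule, were deeper, with medians of 4826 and 4256 UMIs. They include 113 WT and 12 KO T cells. They also include 69 WT and 197 KO droplets that met every NK limit except that on C1q. Levels of NK and T cell genes in the other kept cells thus include RNA of these droplets. Between the libraries 47 barcode sequences were shared, and 0 of them belonged to an NK cell in both.

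NK cells are innate lymphocytes that kill stressed, transformed or infected cells by releasing perforin and granzymes from cytolytic granules, and that secrete interferon gamma and chemokines. Activating receptors signal through small adaptor proteins, while inhibitory receptors, among them most of the Ly49 family (Klra genes), bind MHC class I on the target and restrain killing. In the mouse, CD11b (Itgam) appears on NK cells as they mature, so a CD11b sort takes in mature NK cells beside myeloid cells.

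Marker genes that the rule did not use were read to check the label. Levels are given as CPM, a gene's UMIs per 1000000 UMIs of the summed cells. The rule used 4 of the 18 NK cell markers, and of the other 14, 13 were 10-fold or more above the other kept cells in both libraries, beside 176 of 8065 genes with at least 20 UMIs (2.18%). Ncr1, which encodes the activating receptor NKp46, stood at 448 CPM in WT and 407 CPM in KO NK cells, beside 2.10 and 3.78 CPM in the other cells. Among the markers outside the rule, Eomes, the transcription factor that sets NK cells apart from type 1 innate lymphoid cells (ILC1), stood at 242 and 211 CPM, beside 1.55 and 1.87 CPM. Nkg7, a protein of the granule membrane, stood at 3156 and 2642 CPM, beside 20.9 and 24.7 CPM, and Il2rb, the shared receptor chain for interleukins 2 and 15, at 873 and 903 CPM, beside 9.42 and 8.26 CPM. The exception was Klrk1 (NKG2D), at 711 and 635 CPM in NK cells and 82.9 and 93.4 CPM elsewhere.

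**Figure D1:**
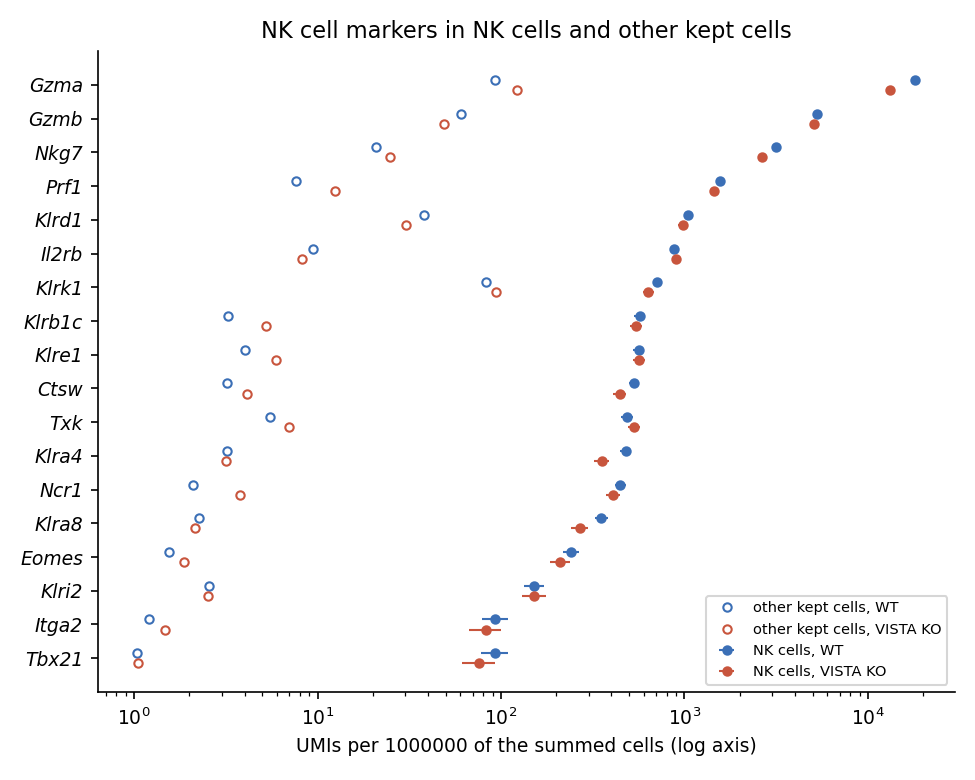
Level of the 18 NK cell markers in CPM (log axis) in NK cells and in the other kept cells of the WT and VISTA KO libraries, 1 point per library, with the exact Poisson interval of the NK cell levels as a line. For 17 markers the NK cells lie 10-fold or more to the right of the other cells in both libraries, and Klrk1 has the narrowest gap.

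Promoter sequence was read from RefSeq (GRCm38.p6) for the genes that mark these cells, because windows of NK-specific genes held one short motif in a larger share than windows at large. The motif searched was the core bound by RUNX transcription factors, TGTGGT on one strand and ACCACA on the other, in windows from 250 bases before to 50 bases after each annotated start. Of 32851 windows, 5506 held it (16.8%), as did 1061 of 8274 windows of the genes with 20 or more UMIs in NK cells (12.8%). Among windows of genes whose level in NK cells was 8-fold or more above the other cells, 69 of 240 held it (28.8%, 179 genes), and 10 of 18 windows of the NK markers did (14 of the markers had a window). The markers whose windows held no match were Eomes, Tbx21, Itga2, Klra4 and Klra8. A match is a string of letters and not a measured site. Runx3, the family member that acts in cytotoxic lymphocytes, was present at 337 CPM in WT and 311 CPM in KO NK cells. Runx3 was not limited to NK cells. In cells thinned at random to an equal number of UMIs, 27.7% of WT and 29.4% of KO NK cells had a Runx3 UMI. So did 10.8% of WT and 12.2% of KO other kept cells, and 16.2% of WT T cells. Binding of Runx3 to the motif was not tested. The 250 bases before the start are printed 5′ to 3′ on the gene's strand, with the motif in capitals where it occurs. They are given for the receptor Ncr1 and the granule genes Gzma, Prf1 and Gzmb. Each of these held the motif, and all but Gzmb were used by the rule.
Ncr1 chr7:4337465-4337714, plus strand: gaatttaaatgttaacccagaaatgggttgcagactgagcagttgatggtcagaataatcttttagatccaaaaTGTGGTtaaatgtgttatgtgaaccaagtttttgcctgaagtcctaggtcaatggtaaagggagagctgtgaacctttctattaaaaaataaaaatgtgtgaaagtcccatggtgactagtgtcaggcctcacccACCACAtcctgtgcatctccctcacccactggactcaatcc
Gzma chr13:113100982-113101231, minus strand: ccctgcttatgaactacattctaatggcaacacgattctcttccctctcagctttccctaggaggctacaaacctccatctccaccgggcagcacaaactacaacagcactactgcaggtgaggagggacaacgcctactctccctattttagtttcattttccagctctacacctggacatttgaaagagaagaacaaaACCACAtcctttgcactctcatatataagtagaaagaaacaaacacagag
Prf1 chr10:61297586-61297835, plus strand: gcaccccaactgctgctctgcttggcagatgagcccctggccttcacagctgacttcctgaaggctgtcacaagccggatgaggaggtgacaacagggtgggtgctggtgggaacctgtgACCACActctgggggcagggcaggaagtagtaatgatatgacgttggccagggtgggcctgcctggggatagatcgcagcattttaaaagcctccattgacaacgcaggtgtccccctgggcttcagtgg
Gzmb chr14:56262335-56262584, minus strand: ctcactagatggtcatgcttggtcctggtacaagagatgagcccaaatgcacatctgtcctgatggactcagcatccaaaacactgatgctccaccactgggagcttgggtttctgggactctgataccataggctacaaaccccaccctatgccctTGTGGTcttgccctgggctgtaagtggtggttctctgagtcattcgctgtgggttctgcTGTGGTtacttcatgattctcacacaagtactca

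Few cells sat near the limit on NK genes, and more sat at the limit on C1q. In the WT library 4 NK cells had 5 to 7 UMIs of the 4 NK genes and 530 had 8 or more, and in the KO library these were 9 and 363. Just outside, with 2 to 4 UMIs, were 12 droplets in each library, with Eomes at 0 CPM in WT and 27.3 CPM in KO. At the C1q limit 24 WT and 96 KO NK cells had exactly 2 UMIs, and 6 WT and 43 KO droplets with 3 UMIs were left out. Those 43 KO droplets had a median of 2465 UMIs and Eomes at 183 CPM, near the KO NK cells, whereas droplets with 7 or more C1q UMIs had medians of 8560 (WT) and 9405 (KO) UMIs. In the KO library the counts thus ran through the C1q limit without a gap.

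NK cells were 5.24% of kept WT cells (4.81 to 5.69%) and 2.46% of kept KO cells (2.22 to 2.72%), a difference of -2.78 percentage points (-3.29 to -2.29). The share depends on the sort and on the C1q limit. Of all droplets with 5 or more NK UMIs that passed the T cell and neutrophil limits, 11.4% (9.01 to 14.3%) of 603 in WT and 34.6% (30.7 to 38.7%) of 569 in KO carried more than 2 C1q UMIs and were not counted as NK cells. Before filters the WT library held 10241 barcodes and the KO library 15257, where the labels give 10000 cells loaded. Droplets with more than 1 cell were not called, and their part in the C1q-positive share was not tested.

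Vsir itself was lower in the KO library. WT NK cells held 81 Vsir UMIs (50.3 CPM, 39.9 to 62.5) and KO NK cells held 13 (10.5 CPM, 5.59 to 17.9), a log2 ratio of -2.17 (-3.23 to -1.41). In the other kept cells Vsir was at 139 CPM in WT and 46.8 CPM in KO. Sequencing from the 3′ end may read outside the deleted part, so the residual Vsir UMIs do not check the deletion. After thinning every cell to 1000 UMIs, 26 of 520 WT and 4 of 364 KO NK cells (1.10%) had a Vsir UMI.

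For the comparison of genotypes, genes with 20 or more UMIs over both sets of NK cells were described by the log2 ratio of KO over WT, and a gene was called higher or lower when the ratio was at least 1.5-fold and its interval left out 1. By this rule 561 of 8065 genes were higher in KO NK cells (6.96%) and 112 were lower (1.39%). With all ratios shifted by their median of 0.08 on the log2 scale, the split was 448 higher and 177 lower. None of the 18 NK markers, 4 of which the rule used, was among the called genes. The median log2 ratio of the 18 was -0.15, against 0.08 over all genes.

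Transcription factors of the lineage were close to equal. Of 20 listed, 16 had enough UMIs, 0 were called in either direction, and their median was 0.08 on the log2 scale. Besides Eomes and Runx3, Tbx21 (T-bet), which directs NK maturation, was at 92.5 CPM in WT and 75.9 CPM in KO NK cells. Id2, which holds innate lymphocytes to their fate, was at 891 and 881 CPM.

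Activating receptors were also mostly level between the genotypes, with 2 of 18 called higher, 0 lower and a median log2 ratio of -0.06. Over all genes 6.96% were called higher and 1.39% lower. Klre1, a lectin-like receptor of the NK gene complex, was at 563 CPM in WT and 564 CPM in KO NK cells. Klrb1c (NK1.1), used by the rule, was at 569.9 and 545 CPM. One of the pair called higher was Fcgr3 (CD16, the Fc receptor for antibody-coated targets), at 101 CPM in WT and 228 CPM in KO (log2 ratio 1.17, 0.89 to 1.46). In the other kept cells Fcgr3 stood higher still, at 496 and 691 CPM. The other was Slamf6, a homophilic receptor, at 7.45 and 19.4 CPM.

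Among the adaptors and proximal signalling genes, 1 of 19 was called, and it was lower, beside 1.39% of all genes called lower. Fcer1g, the signalling chain of CD16 and NKp46, stood at 4438 CPM (4336 to 4542) in WT and 2687 CPM (2596 to 2780) in KO NK cells, a log2 ratio of -0.72 (-0.78 to -0.66). It was 5066 and 4224 CPM in the other cells, a log2 ratio of -0.26, so the NK ratio lay further from 0. Tyrobp (DAP12), the adaptor of several Ly49 receptors, was at 3127 and 2949 CPM, and Hcst (DAP10), which pairs with NKG2D, at 531 and 472 CPM.

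The list of inhibitory receptors had a median log2 ratio of 0.00, with 3 of 21 genes called higher and 1, Vsir, lower. The shares over all genes were 6.96% and 1.39%. Klrc1 (NKG2A), which recognises the nonclassical MHC molecule Qa-1, was at 108 CPM in WT and 128 CPM in KO. Lag3 was at 22.3 and 17.8 CPM, and Cd96 at 22.97 and 24.2 CPM. Those called higher were Klra2 (30.4 to 48.4 CPM), Pirb (34.1 to 88.0 CPM) and Tmem176b (5.59 to 30.7 CPM). Each of them was higher in the other kept cells than in NK cells. Tmem176b is not itself a receptor and is counted again below with the ILC1 genes. Pdcd1 had 1 UMI in WT and 4 in KO NK cells, too few for a ratio.

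Ly49 receptors are expressed in a patchwork, each on a fraction of NK cells, and the libraries showed that pattern. In cells thinned to 1000 UMIs, at least 1 of Klra1, Klra3, Klra4, Klra7, Klra8 and Klra9 was seen in 81.7% of WT NK cells (78.1 to 85.0%) and 75.5% of KO NK cells (70.8 to 79.9%), a difference of -6.18 points (-11.8 to -0.73), beside 0.867% and 0.991% of the other kept cells. Klra7 (Ly49G) was seen most often, in 37.1% of WT and 33.0% of KO cells, and Klra1 (Ly49A) least often, in 8.08% and 7.69%. Of the 520 WT cells, 95 showed 0 of the 6 genes, 188 showed 1, 145 showed 2, 76 showed 3 and 16 showed 4. Of the 364 KO cells, 89 showed 0, 141 showed 1, 87 showed 2, 39 showed 3, 7 showed 4 and 1 showed 5. All 6 had log2 ratios below 0, from -0.56 for Klra3 to -0.15 for Klra7, and none reached the size rule. The sign of Klra7 turned to 0.01 without the droplets of 500 or more Ly6C tags, that of Klra1 to 0.01 with 0 S100a8 and S100a9 UMIs, and that of Klra9 to 0.03 with other gate genes. Members of this family are near-identical, Klra3 and Klra9 among them, so their split of reads is uncertain.

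**Figure D2:**
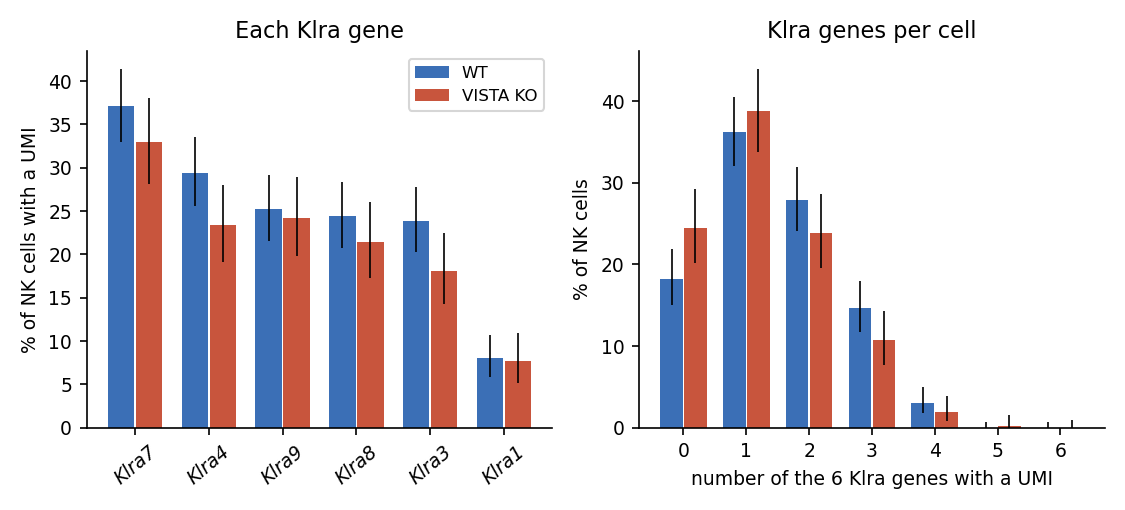
Share of NK cells with a UMI of each of 6 Klra genes after thinning to 1000 UMIs (percent, with Clopper-Pearson intervals), and share of cells by the number of the 6 genes seen, for 520 WT and 364 VISTA KO NK cells. Klra7 leads in both libraries at 37.1% and 33.0%, and cells showing 1 gene are the most common class.

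The 24 granule genes summed to 32893 CPM in WT and 27181 CPM in KO NK cells. Gzma, a tryptase of the granule that the rule used, took 18019 CPM in WT (17812 to 18227) and 13235 CPM in KO (13033 to 13439), a log2 ratio of -0.45 that does not reach the size rule. Gzmb, the caspase-activating granzyme, was at 5256 CPM in WT and 5090 CPM in KO, and Prf1 (perforin, used by the rule) at 1569 and 1447 CPM. The median log2 ratio of the list was -0.05. Of 20 granule genes with enough UMIs, 18 were not called and 2 were higher, beside 6.96% of all genes called higher. Without the droplets of 500 or more Ly6C tags 4 were higher. Those higher were Gzmd (1.86 to 28.3 CPM) and Gzme (6.21 to 21.8 CPM), and both rested on 1 to 5 cells per library. The log2 ratio of Gzmd was 3.55 with an interval of 2.26 to 6.27. Gzmd was seen in 1 WT cell and 4 KO cells, and Gzme in 2 and 5. Fasl, the death ligand that triggers apoptosis through Fas, was at 127 CPM in WT and 111 CPM in KO.

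Chemokines and cytokines of NK cells showed both directions in CPM without a common shift. Ccl5, which draws T cells and monocytes, was the leading chemokine at 11604 CPM in WT and 10033 CPM in KO, and Ccl4 stood at 3328 and 2977 CPM. Ifng (interferon gamma) was at 299 CPM (273 to 327) in WT and 228 CPM (202 to 256) in KO. Xcl1, which attracts cross-presenting dendritic cells, went the other way in CPM, with 408 CPM (378 to 441) in WT and 556 CPM (516 to 599) in KO. Neither reached 1.5-fold. In cells thinned to equal depth the Xcl1 gap was not seen. Its mean there was 0.50 UMIs per WT cell and 0.51 per KO cell, with a UMI in 17.5% and 18.7% of cells. Ifng kept its direction in the thinned cells, with means of 0.32 UMIs in WT and 0.24 in KO. Of 11 genes in this list 1 was called higher, beside 6.96% of all genes. It was Ccl9, at 73.9 and 111 CPM, and Ccl9 was higher outside the NK cells (345 and 355 CPM).

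Cytokine receptors had 3 of 17 genes called higher, beside 6.96% of all genes. Without the droplets of 500 or more Ly6C tags it was 0 of 16. The 3 were Il7r (3.72 to 21.0 CPM), Ifngr2 (21.1 to 46.8 CPM) and Tgfbr1 (11.8 to 24.2 CPM), while Il2rb differed by 0.05 on the log2 scale. In trafficking, 2 of 22 genes were higher, the chemokine receptors Cx3cr1 (20.5 to 45.2 CPM) and Cxcr4 (26.1 to 58.9 CPM). All 5 stood above the NK level in the other kept cells of both libraries. S1pr5, which guides mature NK cells out of lymphoid organs, was at 25.5 CPM in WT and 23.4 CPM in KO.

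Maturation markers were seen in a minority of cells at a fixed depth. Itgam had a UMI in 78 of 520 thinned WT and 71 of 364 thinned KO NK cells (19.5%), with a level of 197 CPM in WT and 231 CPM in KO. Before thinning it was seen in 192 of 534 and 155 of 372 NK cells. Klrg1, a receptor of late maturity, was seen in 7.89% and 12.9%, and Cd27, which marks earlier stages, in 6.15% and 6.59%. The 12 ILC1 markers summed to 191 CPM in WT and 231 CPM in KO NK cells, beside 402 and 435 CPM in the other kept cells. Of 8 with enough UMIs, 3 were called higher in KO, and 1 was 10-fold above the other cells in both libraries. Among them Itga1 (CD49a) was at 26.1 CPM in WT and 17.8 CPM in KO. Cxcr6 had 3 and 2 UMIs, and Zfp683 (Hobit) had 0 in both. Of 18 maturation and ILC1 genes 4 were called higher and 0 lower, beside 6.96% and 1.39% of all genes. They were Emb, Il7r, Tmem176a and Tmem176b, and all 4 had a higher level in the other kept cells.

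Among the lists, markers of dendritic cells and macrophages had the highest median ratios. For the counts of each list here, the shares over all genes were 6.96% higher and 1.39% lower. Of the 14 macrophage markers, 13 were higher in KO NK cells, with a median log2 ratio of 1.16 against 0.08 over all genes. Their summed level was 2195 CPM in WT and 5252 CPM in KO. In the other kept cells the same list had a median log2 ratio of 0.24. Apoe, a lipid carrier of macrophages, was at 371 CPM (341 to 402) in WT and 1321 CPM (1258 to 1386) in KO NK cells. The macrophage list holds C1qa, C1qb and C1qc, which the rule capped, so its count, median and sum mix capped genes with free ones. Of these C1qb was at 36.6 and 131 CPM. Dendritic cell markers had 5 of 6 genes higher, with a median of 1.91 and sums of 1482 and 5018 CPM. The MHC class II gene H2-Aa was at 227 CPM (204 to 251) in WT and 862 CPM (811 to 916) in KO NK cells, beside 1297 and 3244 CPM in the other cells. Its log2 ratio of 1.92 was 0.12 (0.06 to 0.17) and not called when Nkg7, Ctsw, Klrd1 and Il2rb replaced the 4 gate genes. That gate took in 117 WT and 72 KO droplets outside the NK cells, with H2-Aa at 6362 and 6504 CPM and Ncr1 at 3.89 and 4.27 CPM. In the 508 WT and 353 KO cells that met both gates, H2-Aa was at 228 and 835 CPM. Monocyte markers had 6 of 12 higher, with sums of 5304 and 7953 CPM. Neutrophil markers ran otherwise, with 1 of 7 higher, 2 lower and a median of -0.40, beside -1.39 in the other cells. Their list holds S100a8 and S100a9, which the rule also capped. Of 13 dendritic cell markers, 4 were at 0 in WT (Flt3, Clec9a, Zbtb46 and Fscn1) and 1 in KO (Xcr1), and no macrophage or monocyte marker was at 0 in either library.

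These markers were spread over many KO NK cells. The share of NK cells with 0 Lyz2 (lysozyme) UMIs was 51.1% in WT, and in KO it was 41 of 372 cells. For Cd74, the MHC class II invariant chain, 66.7% of WT and 17.5% of KO NK cells had 0 UMIs. At 1000 UMIs per cell, Lyz2 was seen in 27.3% of WT and 64.3% of KO NK cells, Cd74 in 17.9% and 53.0%, and Apoe in 15.8% of WT cells and 182 of 364 KO cells. In WT T cells, which should lack Lyz2, 22.5% of thinned cells had a UMI of it (median depth 3704 UMIs), near the 27.3% of WT NK cells. In the KO library 4 of 12 T cells had a Lyz2 UMI (9.92 to 65.1%), 8 of 12 a Cd74 UMI and 7 of 12 an Apoe UMI at that depth. With 12 cells these shares are too wide to set apart from those of KO NK cells.

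The ratios ordered by how specific a gene was to NK cells. Among the 247 genes 8-fold or more above the other kept cells (3.06% of those described), 7 were higher and 6 lower in KO NK cells. Of 215 genes that were 8-fold above in each library on its own, 2 were higher and 3 lower. Among the 268 genes that were 4-fold or more below the other cells, 172 (64.2%) were higher and 2 lower. The 6040 genes within 2-fold of the other cells held 227 higher and 73 lower. The part of RNA from neighbouring myeloid cells in the genes called higher was not tested.

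**Figure D3:**
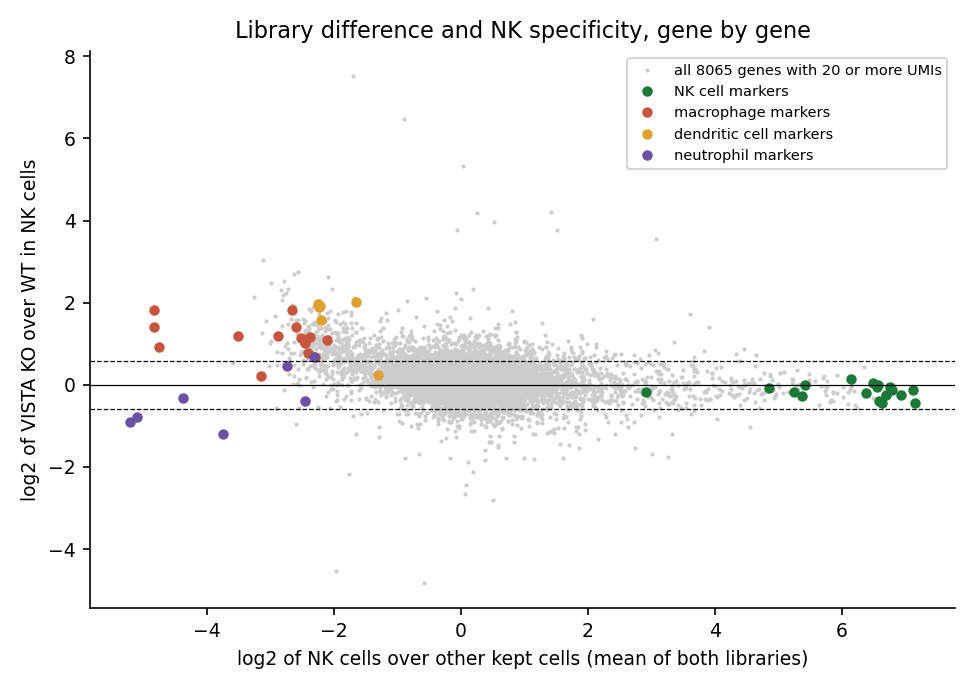
Log2 ratio of VISTA KO over WT in NK cells against the log2 ratio of NK cells over the other kept cells (mean of both libraries), 1 grey point per gene with 20 or more UMIs, markers of 4 cell types in colour and dashed lines at 1.5-fold. Macrophage and dendritic cell markers lie to the left and above 0, neutrophil markers to the left on both sides of 0, and the 247 genes 8-fold or more specific to NK cells lie around 0.

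The 13 called genes of the class 8-fold above the other cells were looked at one by one. Above 8-fold in each library on its own were Fcrl6 (17.4 to 32.3 CPM), a receptor-like protein of cytotoxic lymphocytes, and the transcription factor Myb (29.8 to 49.2 CPM) on the higher side. On the lower side were Rgs16 (63.3 to 30.7 CPM), a brake on G protein signalling from chemokine receptors, Rnf157 (73.3 to 44.4 CPM) and Cited4. The other 8 passed the limit on the mean only through the library in which they were higher, so their count says nothing of its own. They were Cd28, Cd55, Trbc2, Gzmd and Gzme, higher in KO, and Eya2, Zbtb32 and Spin2c, higher in WT. Cd28, best known as a costimulatory receptor of T cells, was at 24.8 CPM in WT and 42.8 CPM in KO NK cells, and at 202 CPM in WT T cells. Trbc2, a constant segment of the T cell receptor beta chain that NK cells can transcribe, was at 109 and 184 CPM, with 1064 CPM in WT T cells. It had a UMI in 13.9% of WT and 26.6% of KO NK cells, while Cd3g was at 6.21 and 5.65 CPM and Cd8a at 0 in both. Rgs16 too was higher in WT T cells, at 128 CPM. Cd28, Cd55 (13.7 to 37.1 CPM), Fcrl6 and Rgs16 lie on chromosome 1, which held 5.80% of the genes described. Their starts range from base 60746388 (Cd28) to base 172595514 (Fcrl6). Ptprc, the gene for CD45, is on the same chromosome, and a link to it was not tested. Cd28 and Cd55 are among the genes that passed the limit only through the KO library.

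Early response genes, switched on within minutes of a stimulus, had 8 of 20 members higher and 0 lower, beside 6.96% and 1.39% of all genes. Their median log2 ratio was 0.35, against 0.06 for the list in the other kept cells. Fos, a subunit of AP-1, was at 451 CPM (419 to 485) in WT and 773 CPM (724 to 823) in KO NK cells, and Zfp36, which speeds decay of cytokine mRNAs, at 181 and 385 CPM. The remaining 6 were Nr4a1, Nr4a3, Egr2, Fosb, Dusp1 and Nfkbid. A list of genes known to respond to tissue dissociation, which shares Fos, Dusp1 and Zfp36 with them, had 8 of 19 higher and a median of 0.35, beside -0.08 in the other cells. Fos was at 1982 and 1922 CPM in the other kept cells, several times its NK level. Neither the handling of the tumors nor RNA from other cells was tested as a source of these values.

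Interferon-stimulated genes had 4 of 35 higher and 0 lower, near the 6.96% and 1.39% of all genes, and a median log2 ratio of 0.25. Ifitm3, a membrane protein that blocks viral entry, was at 1133 CPM in WT and 1799 CPM in KO NK cells, beside 6332 and 6064 CPM in the other cells. Gbp2 was at 114 and 187 CPM, while Isg15, a ubiquitin-like modifier, was at 515 and 353 CPM and not called. MHC class I had 3 of 21 genes higher, namely H2-Q6, H2-Q7 (471 to 899 CPM) and H2-T23 (264 to 434 CPM), the last encoding Qa-1. All 3 showed log2 ratios of 0.74 or more in the other kept cells as well, and H2-Q6 and H2-Q7 are close copies whose reads may be split between them.

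Ratios of cell cycle genes leaned lower in KO, while the list summed to 2084 CPM in WT and 1898 CPM in KO NK cells. Of 29 genes for S, G2 and M phase, 6 were lower and 1 was higher, beside 1.39% and 6.96% of all genes. Without the droplets of 500 or more Ly6C tags 4 of 28 were lower and 2 higher. The median log2 ratio was -0.49, and -0.30 without those droplets, against -0.20 in the other kept cells. Birc5, a protein of the dividing spindle, was at 43.5 CPM (33.9 to 54.9) in WT and 18.6 CPM (11.8 to 27.9) in KO, and Cenpf at 27.9 and 9.69 CPM. Ube2c, Hmmr, Nusap1 and Kif11 were the others, and the replication gene Mcm2 was the one higher. Few thinned cells had a UMI of Mki67, Top2a or Birc5, namely 22 of 520 in WT (4.23%) and 15 of 364 in KO (4.12%). Before thinning these shares were 7.30% and 10.2%. The lower ratios thus did not go with a smaller share of such cells, and the intervals do not cover variation between so few cells.

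The pathways in the title of the study, STAT3 and polyamines, were read in the NK cells too. Beside the counts that follow, 6.96% of all genes were called higher. Stat3 was at 204 CPM in WT and 202 CPM in KO NK cells, and of 20 STAT3 genes 1 was higher, the feedback inhibitor Socs3 (55.9 to 116 CPM). Of 20 polyamine genes 3 were higher, Arg1 (221 to 347 CPM), Slc7a2 (4.35 to 16.1 CPM) and Ass1 (42.2 to 82.4 CPM), which encode arginase, an arginine transporter and an enzyme that remakes arginine. Arg1 stood at 1736 and 1875 CPM in the other kept cells. In glycolysis 2 of 17 genes were higher, Hk2 and Eno1, and in the nuclear genes of oxidative phosphorylation 1 of 62 was, with a median of -0.09.

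**Figure D4:**
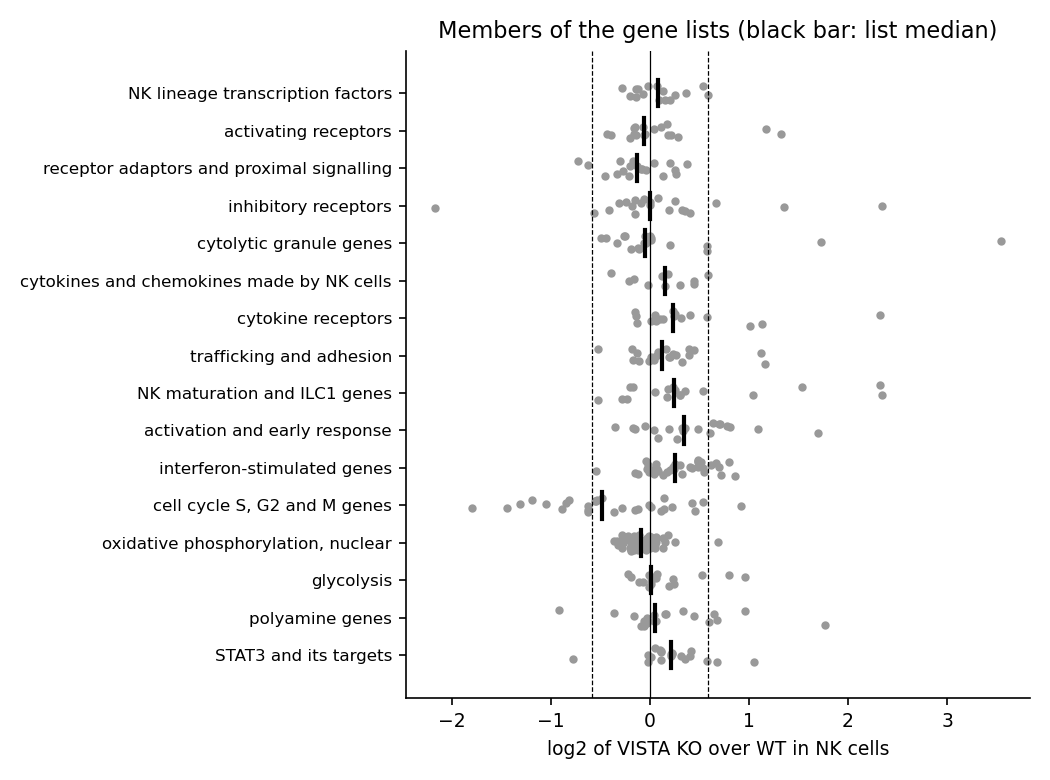
Log2 ratio of VISTA KO over WT in NK cells for the members of 16 gene lists, 1 grey point per gene with 20 or more UMIs, a black bar at each list's median and dashed lines at 1.5-fold. Medians of the receptor, granule and transcription factor lists lie near 0, that of early response genes at 0.35 and that of cell cycle genes at -0.49.

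The genes with the largest ratios were led by a chromosome 1 family. Ifi202b, a cytosolic DNA-binding protein of the interferon-inducible Ifi200 family, had 1 UMI in WT NK cells and 281 (227 CPM) in KO, a log2 ratio of 7.52 (6.02 to 13.8). Ifi213 went from 113 to 3.23 CPM (log2 ratio -4.81), Ifi206 from 166 to 25.8 CPM (-2.65) and Ifi209 from 358 to 173 CPM (-1.05). The other kept cells gave 6.57 for Ifi202b, -5.54 for Ifi213, -3.15 for Ifi206 and -0.87 for Ifi209, so this pattern was not limited to NK cells. Members of the family are similar in sequence and their reads may be split. Chromosome 1 held 5.80% of the genes described, 8.02% of those higher and 12.5% of those lower. In a list of the Ifi200 genes and the neighbours of Ptprc on that chromosome, 6 of 25 genes were higher and 4 lower. Over all genes these shares were 6.96% and 1.39%. That list was chosen with earlier results of these data known, so its counts only describe the choice.

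After Ifi202b, most of the highest ratios belonged to genes of antigen-presenting cells and macrophages. Cxcl9, an interferon-gamma-induced chemokine, was at 31.7 CPM in WT and 209.9 CPM in KO NK cells (log2 ratio 2.71), and H2-Eb1, Pla2g7, H2-Aa, Cxcl16, H2-Ab1, Thbs1, Apoe and C1qb followed with log2 ratios from 1.96 to 1.82. With Nkg7, Ctsw, Klrd1 and Il2rb as gate genes the log2 ratios of Cxcl9, H2-Eb1, H2-Ab1, Cd74 and Cxcl16 were 0.08, -0.029, 0.08, 0.15 and 0.52, none of them called, while Apoe was at 1.92 and C1qb at 1.59. On the low side stood Rnaset2b (196 to 54.9 CPM) and Rnaset2a (186 to 61.4 CPM), near-identical copies of a lysosomal ribonuclease gene. Both were lower in the other kept cells too, at log2 ratios of -1.22 and -1.33. Others were at or near 0 there. The nuclear exporter Xpo1 was at 76.4 CPM in WT and 38.8 CPM in KO NK cells, against a log2 ratio of 0.00 in the other cells, and the hyaluronidase gene Cemip2 was at 91.3 and 48.4 CPM, against 0.19. Of all genes called, 70 of the 561 higher and 34 of the 112 lower also met the size rule in the other kept cells.

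Surface protein was measured with antibodies that carry 15-base DNA tags, counted in the same droplets. The tag sequences are shown because every surface value below is a count of one of them, and capitals mark the whole tag.
Ly6C tag: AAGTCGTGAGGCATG
CD11c tag: GTTATGGACGCTTGC
Ly6G tag: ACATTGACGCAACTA
NK cells had a median of 189 Ly6C tags in WT and 178 in KO, against 1158 and 1045.5 on the other kept cells and 198 and 226 on T cells. CD11c, an integrin of dendritic cells that some NK cells carry, had medians of 8 and 6 tags, beside 13 and 15. Ly6G, a neutrophil protein, had a median of 1 in both libraries, beside 7 and 5. No antibody to CD11b was among the tags, so the sort marker was seen only as Itgam RNA.

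A minority of NK cells had high Ly6C. By a limit chosen after the values were seen, 41 WT NK cells (7.68%) and 51 KO NK cells (13.7%) had 500 or more Ly6C tags. Their median depth was 6155 UMIs in WT and 4863 in KO, against 2197 and 2296 in the rest. Ly6c2, which encodes a Ly6C protein, was at 2423 CPM in these WT cells and 368 CPM in the rest, and at 2309 and 664 CPM in KO. Lyz2 was at 5716 and 412 CPM in WT, and at 7638 and 1383 CPM in KO. Lymphocyte genes ran the other way, with Gzma at 7607 and 20138 CPM in WT and at 5986 and 15384 CPM in KO, and Eomes at 103 and 270.5 CPM in WT and at 131 and 234 CPM in KO. The number of cells in such droplets was not tested.

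**Figure D5:**
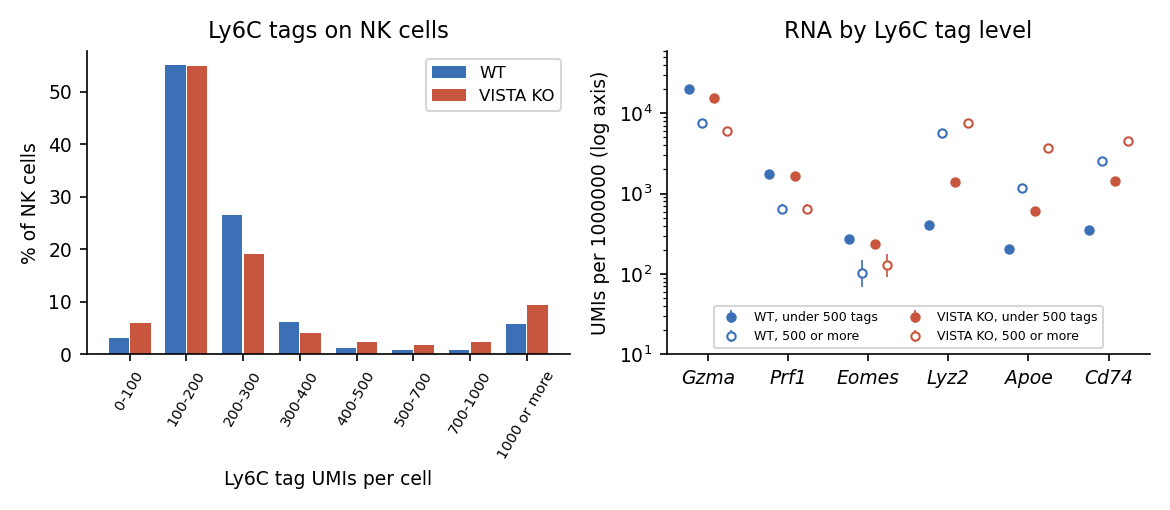
Left, share of NK cells (percent) by Ly6C tag UMIs per cell in the WT and VISTA KO libraries; right, level of 6 genes in CPM (log axis) with exact Poisson intervals in NK cells with under 500 tags (filled) and 500 or more (open). Most cells have 100 to 300 tags, and the open points are lower for Gzma, Prf1 and Eomes and higher for Lyz2, Apoe and Cd74.

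The comparison of genotypes was repeated without the high-Ly6C droplets. Of 7451 genes, 488 were higher (6.55%) and 109 lower (1.46%). All 13 macrophage markers with enough UMIs were higher, with a median log2 ratio of 1.74, in the list that holds the capped C1q genes. Of the 18 NK markers 0 were called. Early response genes had 7 of 20 higher. Of 246 genes 8-fold above the other cells by the mean of both libraries, 12 were higher and 8 lower, against 7 and 6 with all NK cells. Genes can pass this limit on the mean only through the library in which they are higher, so these counts say nothing of their own.

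Droplets that met every NK limit but carried more than 2 C1q UMIs numbered 69 in WT and 197 in KO, with medians of 8443 and 6881 UMIs. Gzma was at 5433 CPM in the WT and 5895 CPM in the KO droplets of this kind, below the NK cells, and Lyz2 at 5606 and 6086 CPM, above them. Eomes was at 87.9 and 86.6 CPM and Apoe at 4110 and 4562 CPM. Their median Ly6C tag counts were 1412 and 880. In the WT library the NK cells, at 1309 CPM of Lyz2, lay between these droplets and the T cells (1138 CPM), and they stood above both in Gzma and Eomes.

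T cells of the WT library (113 cells) were the nearest lymphocytes in the sort. Compared with them, WT NK cells had 18019 against 802 CPM of Gzma, 1569 against 125 CPM of Prf1 and 448 against 19.9 CPM of Ncr1. The rule chose NK cells by these genes, so the gaps only describe the choice. Of genes outside the rule, Eomes was at 242 against 14.4 CPM and Klre1 at 563 against 30.7 CPM. Gzmb was closer, at 5256 and 3261 CPM. Receptors known from activated T cells were also read. Ctla4 was at 15.5 CPM in NK cells and 928 CPM in T cells, Tnfrsf18 (GITR) at 182 and 1365 CPM, and Tnfrsf9 (4-1BB) at 361 and 957 CPM. Trbc1 was at 361 and 365 CPM.

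Chemokines, granzymes, Malat1 and myeloid genes had the highest spread between NK cells. The Fano factor, variance over mean of UMIs at 1000 UMIs per cell, is 1 for pure counting noise, and its median over genes with a mean of 0.1 or more UMIs was 1.05 in WT and 1.06 in KO. Ccl5 had 13.4 in both libraries, Ccl4 had 11.3 in WT and 21.1 in KO, Gzmb 9.49 and 7.82, and Gzma 7.24 and 7.39. The nuclear RNA Malat1 had 8.26 and 7.84, and the myeloid genes Apoe, Cd74 and Lyz2 had 7.37, 7.47 and 5.37 in WT and 6.48, 5.71 and 6.58 in KO. A Fano factor of 2 or more was reached by 42 genes in both libraries, and 10 genes were among the top 15 of both. Gzmc, a granzyme of strongly stimulated lymphocytes, was the most concentrated of the abundant granzymes, with a UMI in 63 WT and 35 KO cells and 80.7% and 85.9% of its UMIs in 10 cells of each library. Its highest cell held 166 UMIs in WT and 112 in KO. Xcl1 was seen in 147 and 119 cells, with 45.4% and 42.1% of its UMIs in 10 cells.

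Some pairs of effector genes went together from cell to cell and others did not, as a description over cells that share a library and a fixed depth of 1000 UMIs. Ccl3 and Ccl4 had a correlation of 0.55 across the 520 WT cells and 0.55 across the 364 KO cells. For Gzma and Gzmb it was 0.39 and 0.45, and for Gzma and Prf1 0.31 and 0.34. Other pairs lay near 0, with Gzma and Gzmc at -0.11 and 0.00, Gzmb and Gzmc at -0.02 and 0.05, Ifng and Xcl1 at 0.07 and 0.03, and Ccl4 and Ccl5 at 0.09 and 0.18. Lyz2 and Gzma had correlations of -0.22 and -0.25, so cells with more lysozyme RNA tended to have less Gzma within each library.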

How the data were processed

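The authors deposited 1 matrix of UMI counts per genotype, holding 32285 genes and 3 antibody tags, from 10x 3′ libraries processed with Cell Ranger 5.0.0 per the file headers; mm10 and Seurat 4.0 are named in the submitters' processing notes. The calling of barcodes as cells is not stated in the labels or headers. Barcodes with 200 or more genes, 500 or more UMIs and at most 10% mitochondrial UMIs were kept, and NK cells were taken by the limits in the text. No doublet caller was run; the C1q, CD3 and S100 limits remove mixed droplets only in part. UMIs were summed over NK cells per library and scaled to CPM, so a gene can move because others take a larger share. Log2 ratios used a pseudocount of 1 UMI and an exact conditional binomial interval; levels have exact Poisson, shares Clopper-Pearson and differences of shares Newcombe intervals (Python 3.11.15, scipy 1.17.1, statsmodels 0.14.6). Shares with a UMI and Fano factors used cells thinned without replacement to 1000 UMIs, which left out 14 WT and 8 KO cells. The ratio code was tested on simulated data. NK cells, gene lists and limits were chosen with earlier results of these data known. Genes named were Vsir, the NK markers, list members, the 15 highest and 15 lowest ratios among genes with 100 or more UMIs and a UMI in 5% of NK cells, the most specific, the most abundant and the most variable genes. Those named among the genes 8-fold specific to NK cells were chosen after their values were seen. Alternatives changed each gate limit, the cell filter, the scaling, the fold and the thinning depth.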

Additional observations from a re-analysis of the deposited data

How the results depend on the processing

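No paired analysis was possible because both genotypes came as single libraries. For the same reason no replicate could be left out. Depth leaves genes under 20 UMIs undescribed. Against 561 genes higher and 112 lower in KO NK cells, shifting ratios by the median of all genes gave 448 and 177, weighting each cell equally gave 767 and 212, a lower fold limit gave 752 and 209, and a minimum of 100 UMIs gave 244 and 41 of 3669 genes. Keeping only genes 8-fold specific to NK cells gave 7 and 6, or 2 and 3 where each library on its own had to pass. These alternatives, the Ly6C and Lyz2 limits and C1q up to 6 UMIs were chosen after seeing the data. The difference in NK share of -2.78 points was -2.03 with 0 S100a8 and S100a9 UMIs and -3.32 with Nkg7, Ctsw, Klrd1 and Il2rb as gate genes. Thinning to 500 UMIs left 20 genes with a Fano factor of 2 or more, against 42 at 1000. H2-Eb1 turned from a log2 ratio of 1.96 to -0.029 with the other gate genes. The cause of these changes was not tested. The median log2 ratio of the macrophage markers ranged from 1.03 to 1.86, and that of the NK markers from -0.23 to -0.02. Of all single-gene and list values under the alternatives, 737 stayed within the interval or limit set for them, 68 moved further and H2-Eb1 alone changed sign among values that met the size rule. Ratios that did not meet it, between -0.28 and 0.08 in the main setting, changed sign in 20 gene values and 8 list medians.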
